A study of Mus musculus with 2 samples.

Results

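The let-7 family of microRNAs, with its close relative miR-98, was examined in whole mouse liver at embryonic day 16.5. Its 10 members were the rows of the count tables that carry the names Mirlet7a-1, Mirlet7a-2, Mirlet7b, Mirlet7c-1, Mirlet7c-2, Mirlet7d, Mirlet7f-2, Mirlet7g, Mirlet7i and Mir98 in the mouse gene annotation, out of 1973 gene rows in all. Each of the 10 names had a row, and every member had counts in both libraries. The series held 1 group, healthy B6NCrl embryos of both sexes, with 2 biological replicates and no treatment, mutation or second tissue. Each replicate was a pool of livers; the pool of replicate 2 came from 41 embryos, and the labels give no number for replicate 1. The libraries were made from total RNA with a size range below 30. With 1 group, differences can be drawn between members and between the 2 pools, not between conditions.

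MicroRNAs are cut from a hairpin precursor, whose arms give a 5p and a 3p mature form, and they repress messenger RNAs that pair with the seed, the bases next to their 5′ end. The let-7 microRNAs share 1 seed, are encoded by many hairpin genes in mammals, and are known for rising as embryonic tissues differentiate and for repressing growth genes such as Lin28b, Hmga2 and Igf2bp family members. LIN28 proteins, which are expressed in fetal liver, bind the terminal loop of many let-7 precursors at a GGAG motif and block their maturation. The fetal liver itself is made up largely of hepatocyte precursors and of developing blood cells.

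The sequences decide which member a read can be given to, so the 8 distinct 5p forms of the 10 members are shown with the seed, bases 2 to 8, in capitals. They were taken from RefSeq for GRCm38.p6, in which all 10 members matched a hairpin of the same coordinates, and all 10 carry the same seed. For Mirlet7a-2, the let-7a 5p form was located in its hairpin.
let-7g-5p: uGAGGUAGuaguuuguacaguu
let-7i-5p: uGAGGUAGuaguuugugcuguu
let-7d-5p: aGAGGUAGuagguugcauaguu
miR-98-5p: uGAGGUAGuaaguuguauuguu
let-7f-5p: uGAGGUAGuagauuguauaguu
let-7b-5p: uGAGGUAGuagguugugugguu
let-7a-5p: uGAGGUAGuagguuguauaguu
let-7c-5p: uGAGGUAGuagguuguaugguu
Counting from 1 at the 5′ end, with the base of let-7a first, let-7c differs from let-7a by A19G alone and let-7f by G12A alone. Let-7b differs by A17G and A19G, let-7g by G12U and U18C, let-7d by U1A and U16C, and miR-98 by G11A and A19U. Let-7i is the farthest from let-7a, with G12U, A17G, U18C and A19U. Every difference other than U1A of let-7d lies 3′ of the seed.

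The 5p form of 5 members occurs in 1 annotated mouse hairpin, and that of the other 5 members occurs in 2. Mirlet7g, Mirlet7i, Mirlet7d, Mirlet7b and Mir98 are in the first class. Let-7a-5p is encoded by Mirlet7a-1 and Mirlet7a-2, let-7c-5p by Mirlet7c-1 and Mirlet7c-2, and let-7f-5p by Mirlet7f-2 and by Mirlet7f-1, which has no row of its own. Reads that map to several places are not in the counts of any gene: they are in a multimapping tally of 3968471 reads in replicate 1 and 3433679 in replicate 2. This tally is 6.85 times the family's own count in replicate 1 and 6.53 times in replicate 2, and it is not split by microRNA, so how much of it is let-7 was not measured.

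The length of a read also sets whether it belongs to 1 hairpin. A read that starts at the 5p start of Mirlet7d or Mir98 is held by 1 hairpin already at 14 bases, the shortest length searched, whereas Mirlet7g, Mirlet7i and Mirlet7b need 17 bases. Mirlet7f-2 needs 23 bases, 1 past the end of its 22-base mature form. Mirlet7a-1, Mirlet7a-2, Mirlet7c-1 and Mirlet7c-2 need 24 bases, 2 past the end, so no read of exactly their 5p form can be given to 1 gene. The 3p forms separate Mirlet7a-2, Mirlet7c-1 and Mirlet7f-2 from all other hairpins, but those of Mirlet7a-1 and Mirlet7c-2 are identical to each other, as shown here with bases 2 to 8 in capitals.
let-7a-1-3p: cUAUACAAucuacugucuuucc
let-7c-2-3p: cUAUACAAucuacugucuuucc
let-7a-2-3p: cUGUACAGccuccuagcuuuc
let-7c-1-3p: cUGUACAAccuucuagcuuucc
let-7f-2-3p: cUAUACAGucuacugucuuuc
An exact read of either annotated arm of Mirlet7a-1 or of Mirlet7c-2 is therefore held by 2 hairpins.

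**Figure D1:**
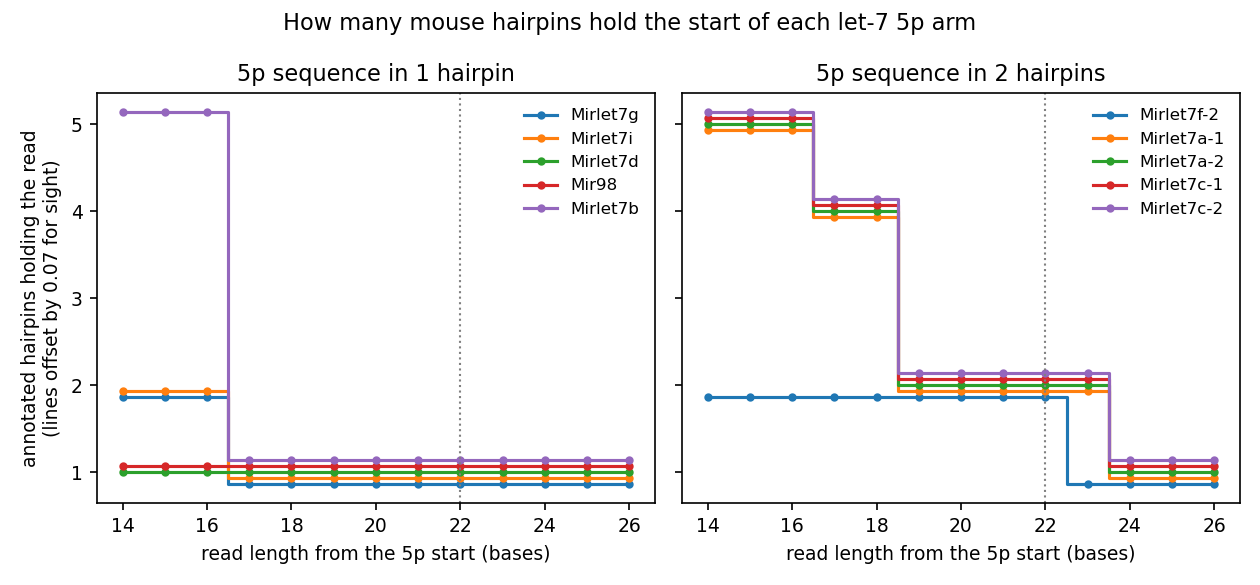
Number of annotated mouse hairpins (vertical axis, lines offset slightly) that hold a read of a given length in bases (horizontal axis) from the 5p start of each member, for members whose 5p form occurs in 1 hairpin (left) and in 2 hairpins (right); the dotted line marks the 22-base mature length. Members on the left reach 1 hairpin by 17 bases, and those on the right only at 23 or 24 bases.

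The tables count 5930074 reads on the annotated strand of microRNA genes in replicate 1 and 5102289 in replicate 2, and levels are given as counts per 1000000 of these (CPM). A single count thus stands for 0.169 CPM in the first library and 0.196 CPM in the second. Counts are per hairpin gene, with both arms together. Of the marker lists for the tissue, the 4 hepatocyte microRNAs summed to 219881 and 221989 CPM and the 3 erythroid ones to 24071 and 27152 CPM, while the 5 neural ones with a row summed to 157 and 170 CPM. Mir122, the hepatocyte microRNA, held 21.3% and 21.5% of the counts, and Mir451a, the erythroid one, 1.65% and 1.75%. In whole tissue, fewer cells of a type and less RNA per cell cannot be told apart.

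Together the 10 members held 579127 counts in replicate 1 and 526186 in replicate 2. In replicate 1 that is 9.77% of all sense-strand counts, with a 95% Clopper-Pearson interval of 9.742% to 9.790%. In replicate 2 it is 10.3%, with an interval of 10.286% to 10.339%. PCR copies may be among the reads, so such intervals, and limits drawn from a count of 0, take in only the error of counting. The 2 intervals did not overlap, so the pools differed by more than counting error if every read is taken as independent. The 5 members with a 5p form in 1 hairpin held 97.7% of the family in replicate 1 and 97.6% in replicate 2, a mean of 97.6% ± 0.0720 (SD, n = 2). The 5 members whose 5p form occurs in 2 hairpins held 2.35% and 2.45%. Both classes were defined by sequence, without their counts, but the counting rule itself takes exact 5p reads from the second class. These shares are of counts that could be given to 1 gene, not of the let-7 in the tissue. When 1 mismatch was allowed, only Mirlet7d, Mirlet7g and Mir98 stayed in the first class, and its share was 70.4%.

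By counts that could be given to 1 gene, Mirlet7g led the family in both pools. It lies at chr9:106178840-106178927 of mm10 on the plus strand, within an intron of the protein-coding gene Wdr82 (ENSMUSG00000065440.1). It had 342214 counts in replicate 1 and 300906 in replicate 2, or 57708 and 58975 CPM, with a mean of 58342 ± 896 CPM (SD, n = 2). Among all gene rows it ranked 2 in both libraries. It alone made up 58.1% ± 1.35 of the family's counts, and with Mirlet7g taken out of both the family and the total, the share of the other 9 members was 4.47%.

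Mirlet7i came next, at chr10:122985640-122985724 on the minus strand, overlapping an exon of the transcribed pseudogene D630033A02Rik (ENSMUSG00000065406.2). It had 145546 and 143925 counts, or 24544 CPM in replicate 1 and 28208 CPM in replicate 2. Its mean of 26376 ± 2591 CPM lay 2.21 times below that of Mirlet7g, and their ranges did not overlap. Mirlet7g and Mirlet7i, the only members with G12U, together held 84.4% ± 0.223 of the family's counts. This left 15.8% in replicate 1 and 15.5% in replicate 2 to the other 8 members.

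Mirlet7d and Mir98 formed the next step. Mirlet7d (ENSMUSG00000065453.1, chr13:48536012-48536114, minus strand) overlaps an exon of 6720427I07Rik, which makes a long noncoding RNA, and had 46046 and 37637 counts, or 7765 and 7376 CPM. Mir98 (ENSMUSG00000065536.2, chrX:151913214-151913321, plus strand), in an intron of the ubiquitin ligase gene Huwe1, had 25943 and 25866 counts, or 4375 and 5069 CPM. Mirlet7d was 1.60 times Mir98 by their means, and their ranges did not overlap.

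Mirlet7f-2 and Mirlet7b were lower again. Mirlet7f-2 (ENSMUSG00000065602.1, chrX:151912346-151912428, plus strand), also in an intron of Huwe1, had 11044 and 10493 counts, or 1862 and 2057 CPM, although its 5p form is shared with Mirlet7f-1 and its reads in the multimapping tally are missing from this count. Mirlet7b (ENSMUSG00000065564.1, chr15:85707319-85707403, plus strand), in an exon of the noncoding gene Lncppara, had 5782 and 4963 counts, or 975 and 973 CPM. Mirlet7b thus had the lowest level of the members with a 5p form in 1 hairpin, below Mirlet7f-2, whose 5p form occurs in 2 hairpins, by 2.01 times.

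The 4 genes for let-7a and let-7c closed the order, and for each of them reads of the exact 5p form fall to the multimapping tally. Mirlet7a-1 (ENSMUSG00000065421.2, chr13:48538179-48538272, minus strand), in an exon of 6720427I07Rik, had 1156 and 1005 counts, or 195 and 197 CPM. Mirlet7a-2 (ENSMUSG00000092770.1, chr9:41536716-41536811, plus strand), in an intron of 3110039I08Rik and of Gm49317, had 1002 and 977 counts, or 169 and 191 CPM. Mirlet7a-1, both of whose arms are shared, was thus not below Mirlet7a-2, whose 3p form is its own.

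Mirlet7c-1 (ENSMUSG00000065557.2, chr16:77599657-77599750, plus strand), in an intron of Mir99ahg, had 228 and 201 counts, or 38.4 and 39.4 CPM. Mirlet7c-2 (ENSMUSG00000065608.1, chr15:85706603-85706697, plus strand), in an exon of Lncppara, had 166 and 213 counts, or 28.0 and 41.7 CPM. Their ranges overlapped, and Mirlet7c-1 was the higher of the pair in replicate 1 and the lower in replicate 2. Summed by mature form, the let-7a genes reached 364 and 388 CPM and the let-7c genes 66.4 and 81.1 CPM, both below Mirlet7b. These sums are counts that could be given to 1 gene, not the amounts of let-7a or let-7c in the tissue.

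**Figure D2:**
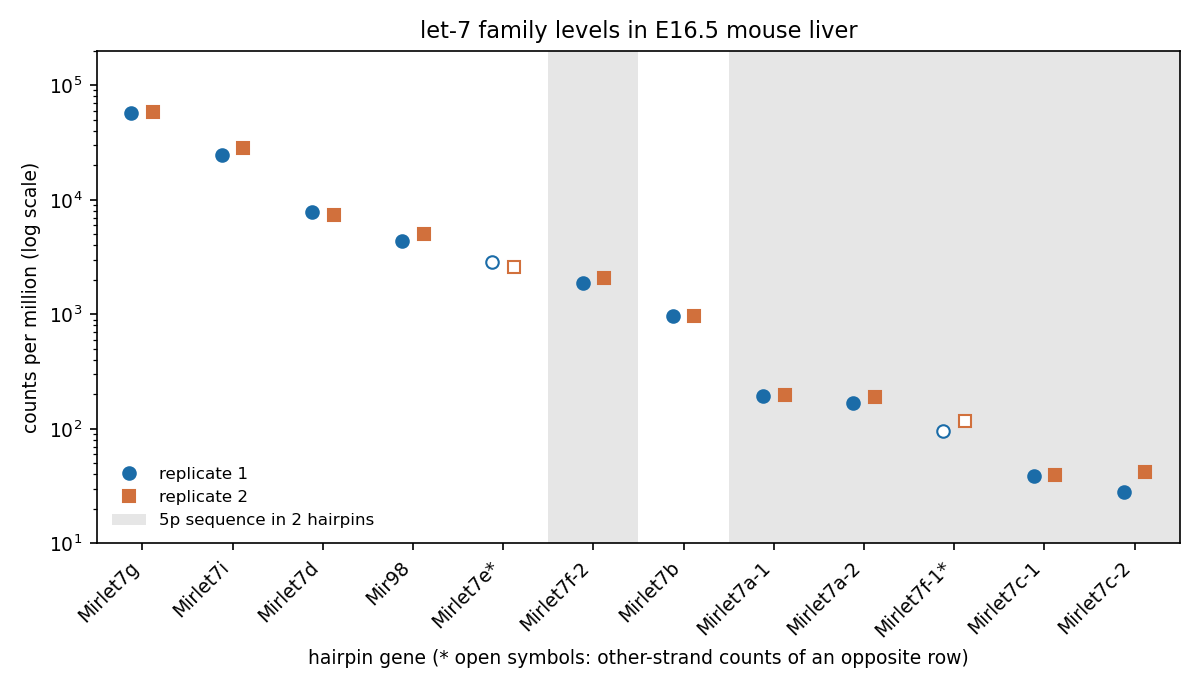
Level of each let-7 hairpin gene in CPM (log scale) in replicate 1 (circles) and replicate 2 (squares), in order of the mean; grey marks genes whose 5p form occurs in 2 hairpins, and open symbols are other-strand counts for Mirlet7e and Mirlet7f-1. Values run from 57708 and 58975 CPM for Mirlet7g to 28.0 and 41.7 CPM for Mirlet7c-2. The lowest members are all in the grey class, whose exact 5p reads fall to the multimapping tally.

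Of the 9 pairs of neighbours in this order, 8 had ranges over the 2 libraries that did not overlap, and the pair of Mirlet7c-1 and Mirlet7c-2 overlapped. Mirlet7a-1 and Mirlet7a-2 were separate by a narrow margin, with ratios of 1.15 in replicate 1 and 1.03 in replicate 2. Larger steps lay between Mirlet7i and Mirlet7d (3.48 times by the means), Mirlet7b and Mirlet7a-1 (4.97 times) and Mirlet7a-2 and Mirlet7c-1 (4.63 times). Division by the annotated hairpin length left the order of all 10 members in place. The order is one of counts that could be given to 1 gene.

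Mirlet7e and Mirlet7f-1 complete the family in the annotation but have no row in the tables. At each of their loci the tables have a row for a gene on the opposite strand, Gm25927 and Gm24111, so reads on the strand of Mirlet7e and Mirlet7f-1 are in the other-strand column of these rows. The row of Gm25927 (ENSMUSG00000092799.1, chr17:17830343-17830459, minus strand) had 0 counts on its own strand in both libraries and 16918 and 13192 on the other. These correspond to 2853 CPM in replicate 1 and 2586 CPM in replicate 2 on the strand of Mirlet7e, between the levels of Mir98 and Mirlet7f-2 and overlapping neither. The 5p form of Mirlet7e occurs in 1 hairpin and differs from let-7a by U9G.
let-7e-5p: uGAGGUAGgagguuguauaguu
The row of Gm24111 (ENSMUSG00000093232.1, chr13:48537825-48537921, plus strand) had 1 and 2 counts on its own strand and 569 and 599 on the other. That is 96.0 and 117 CPM on the strand of Mirlet7f-1, below Mirlet7a-2 and above Mirlet7c-1. By these counts Mirlet7f-2 exceeded Mirlet7f-1 by 19.4 times in replicate 1 and 17.5 times in replicate 2, a ratio computed after the values were seen. Both genes encode the same 5p form, and its exact reads are in neither count. The ratio therefore does not show which gene gives more let-7f. With both added to the family and to the total, the family's share was 10.3%, within the spread of the 2 libraries.

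At the members themselves the other strand was almost empty. Mirlet7b had 12 and 11 other-strand counts, or 0.207% and 0.221% of the counts on either strand, and the other 9 members had 0 in both libraries. A count of 0 allows an other-strand count of up to 0.000877% of the sense-strand count for Mirlet7g in replicate 1 and up to 1.81% for Mirlet7c-2 in replicate 1.

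Members that lie beside each other had unequal counts. On chromosome 13, within 2261 bases, Mirlet7d was 39.8 times Mirlet7a-1 in replicate 1 and 37.4 times in replicate 2, a log2 ratio of 5.27 ± 0.06 (SD, n = 2). On chromosome 15, within 801 bases, Mirlet7b was 34.7 times Mirlet7c-2 in replicate 1 and 23.2 times in replicate 2 (log2 4.83 ± 0.41). In both pairs the lower member is one whose annotated arms are each shared with another hairpin. On the X chromosome, within 976 bases, Mir98 was 2.35 times Mirlet7f-2 in replicate 1 and 2.47 times in replicate 2 (log2 1.27 ± 0.05). This was a smaller difference than in the other 2 pairs. Here too the lower member, Mirlet7f-2, lacks its exact 5p reads, because Mirlet7f-1 holds the same 5p form.

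Mammalian let-7 genes also lie in clusters with miR-99 or miR-100 and miR-125, which carry other seeds. On chromosome 16, Mir99a had 83005 and 67779 counts, or 13997 and 13284 CPM, which was 363 times Mirlet7c-1 in replicate 1 and 336 times in replicate 2. Mir99a shares no 18-base word of its hairpin with another listed gene, but the count of Mirlet7c-1 lacks its exact 5p reads. On chromosome 9, Mir100 had 978 and 987 CPM and was 5.79 and 5.15 times Mirlet7a-2, whose count also lacks its exact 5p reads. Mir125b-1, in the same locus, had 38.3 and 54.7 CPM, and Mir125b-2, beside Mirlet7c-1, had 154 and 172 CPM, but part of each hairpin's sequence recurs in another listed gene, so these counts too lack the reads that went to the multimapping tally.

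The chromosome 17 cluster, which spans 692 bases, holds no member with a row of its own. Mir99b had 6492 and 4836 CPM, the strand of Mirlet7e 2853 and 2586 CPM and Mir125a 1030 and 938 CPM. Thus the strand of Mirlet7e held 27.5% of this locus in replicate 1 and 30.9% in replicate 2. Mirlet7a-2 held 14.3% and 15.5% of the chromosome 9 cluster, and Mirlet7c-1 held 0.271% and 0.292% of the chromosome 16 cluster. These shares cannot be set beside that of Mirlet7e, because the exact 5p reads of Mirlet7a-2 and Mirlet7c-1 are in the multimapping tally. The totals of both clusters also lack any reads of Mir125b-1 and Mir125b-2 that went to this tally.

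**Figure D3:**
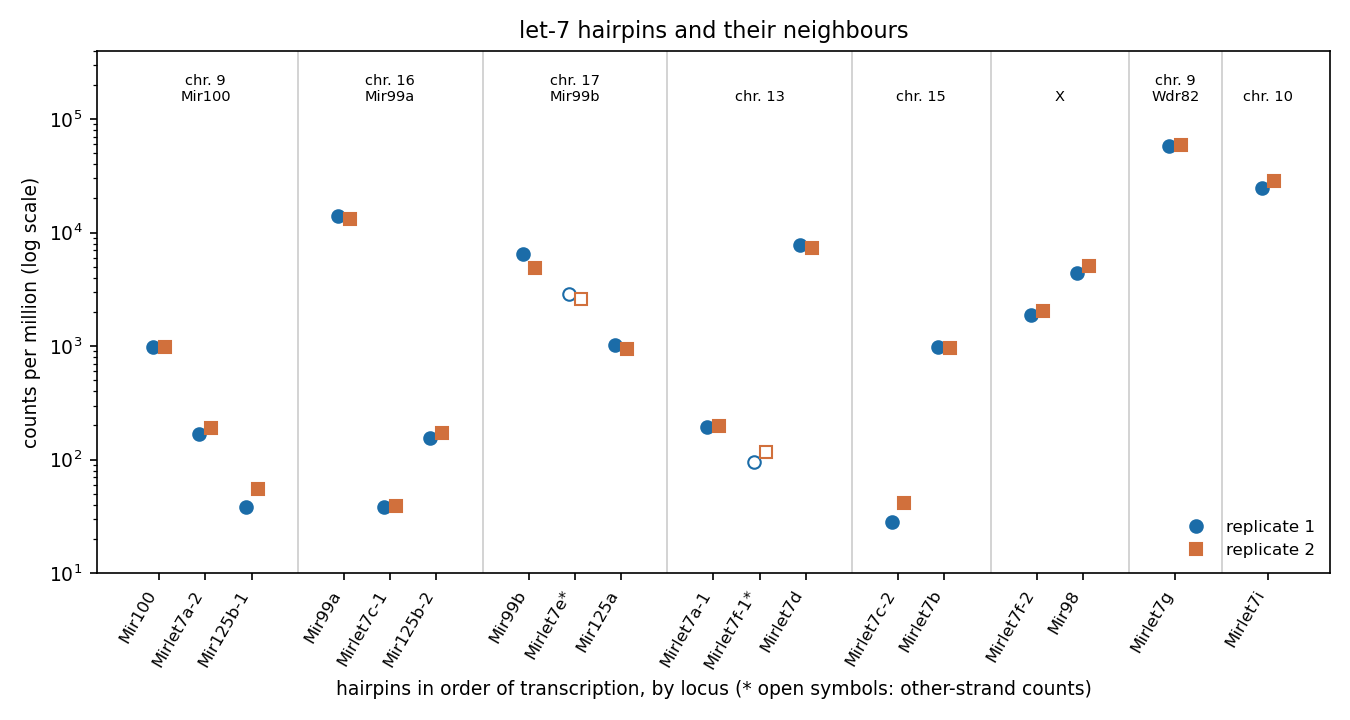
Level in CPM (log scale) of the hairpins of each let-7 locus, in order of transcription within the locus, in replicate 1 (circles) and replicate 2 (squares); open symbols are other-strand counts for Mirlet7e and Mirlet7f-1. Mirlet7a-2, Mirlet7c-1, Mirlet7c-2 and Mirlet7a-1 each lie below a neighbour of the same locus, by 5.15 times at the least and 363 times at the most for the 4 named pairs. The exact 5p reads of these genes, and of Mirlet7f-2 and Mirlet7f-1, are in the multimapping tally. The gaps are between counts that could be given to 1 gene.

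The loop of the precursor, between the mature arms, was searched in 9 members and is shown for the 3 highest and for the 2 without a GGAG, because this motif marks the precursors that LIN28 is known to bind. Capitals mark the motif GGAG, searched on the RNA's own strand.
Mirlet7g loop: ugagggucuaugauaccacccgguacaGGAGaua
Mirlet7i loop: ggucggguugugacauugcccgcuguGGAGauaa
Mirlet7d loop: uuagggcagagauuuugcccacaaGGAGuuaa
Mirlet7b loop: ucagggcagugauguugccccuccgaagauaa
Mirlet7c-2 loop: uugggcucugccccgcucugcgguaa
The motif was found in 7 of the 9 loops, each time 3 or 4 bases before the 3p form, and in 52 of 644 loops (8.07%) over all RefSeq mouse hairpins with both arms listed. Among the 52 loops of 23 to 34 bases, the range of these 9, the motif was in 13 (25%), and both backgrounds include the members with both arms listed. The 7 members with the motif held 94.5% of the family's counts in replicate 1 and 94.1% in replicate 2. The 2 without it, Mirlet7b and Mirlet7c-2, held 1.03% and 0.984%. Levels of both classes overlapped in these counts. Mirlet7c-1, with the motif, was at 38.4 and 39.4 CPM and Mirlet7b, without it, at 975 and 973 CPM. However, these levels and shares lack the exact 5p reads of Mirlet7c-1, Mirlet7c-2, Mirlet7a-1, Mirlet7a-2 and Mirlet7f-2. Searched members with a 5p form in 1 hairpin did not overlap by class. Mirlet7g, Mirlet7i and Mirlet7d, with the motif, all lay above Mirlet7b, the lowest being Mirlet7d with 7765 CPM in replicate 1 and 7376 CPM in replicate 2. Mirlet7b alone stood for the class without the motif there, so the classes cannot be compared. A match of letters is a description and says nothing of LIN28 in these livers.

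Relatives of the family added little. The let-7j form of Mir7j (ENSMUSG00000099169.1, chr3:140028249-140028370, plus strand) differs from let-7i by G8U, the last base of the seed, and is 24 bases long.
let-7j: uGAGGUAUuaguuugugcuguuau
Mir7j had 261 and 237 counts, or 44.0 and 46.4 CPM, 557 times below Mirlet7i in replicate 1 and 606 times below it in replicate 2. The let-7i 5p form matches the hairpin of Mir7j with 1 mismatch. Let-7i reads with a wrong base may therefore be among these counts, which was not tested. Mir7j has no let-7 seed in full and was named after its values were seen. Mir7k and Mir1961, whose listed mature forms carry the seed, had 0 counts in both libraries, which allows up to 0.506 CPM in replicate 1 and 0.588 CPM in replicate 2.

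Genes outside the family with levels most like those of the 3 highest members were listed, with all members left out of the search. By distance in log2 CPM over the 2 libraries, Mir26b was nearest to Mirlet7g (distance 0.205), with 50959 and 55091 CPM, before Mir126a (0.444) and Mir335 (1.30). Mir411 was nearest to Mirlet7i (0.0930), with 26079 and 28826 CPM, before Mir335 (0.334) and Mir17 (0.449). Mir382 was nearest to Mirlet7d (0.113), with 8398 and 7367 CPM, before Mir101b (0.169) and Mir106b (0.231). With 2 libraries this likeness is little more than a like level.

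The 2 pools were then compared, to see how closely the members repeat. Counts of 1 library were set against those of the other with a two-sided exact binomial test and Benjamini-Hochberg adjustment over all 440 genes tested, which compares these 2 libraries over counting error and not 2 conditions. At an adjusted p of 0.05, 7 of the 10 members differed, against 44.5% of all genes tested and 79.2% of the 183 genes that averaged at least 100 CPM. Of the members, 1 was higher in replicate 1, against 27% of all genes tested, and 6 were lower in it, against 17.5%. Over all genes, 119 were higher in replicate 1 and 77 lower, but with TMM or DESeq2 scaling 98 were higher and 96 lower. With either of these scalings 7 members were lower in replicate 1 and 0 higher. The members' share of calls in either direction lay between these backgrounds. The share called lower in replicate 1 lay above 17.5% and also above the 28.4% of genes averaging at least 100 CPM that were called lower.

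The log2 ratios of replicate 1 over replicate 2 lay between -0.21 and 0.07 for all members but Mirlet7c-2. The median of the 10 was -0.09, against 0.08 over all genes tested, and the median absolute ratio of the 10 was 0.11, against 0.27 over all genes tested and 0.20 over those that averaged at least 100 CPM. Mirlet7g was lower in replicate 1, with a log2 ratio of -0.03 (counting SE 0.0036, adjusted p 2.06e-17 by the exact test), or 1.02 times, and the ratio was -0.11 with TMM scaling and -0.10 with DESeq2 scaling. Mirlet7i was lower at -0.20 (counting SE 0.0054), with an adjusted p by the exact test too small to be written. Mir98 was lower at -0.21 (counting SE 0.0127, adjusted p 4.68e-62 by the exact test). Mirlet7f-2 had a ratio of -0.14 (adjusted p 1.64e-12 by the exact test), or -0.22 with either of the other scalings, and Mirlet7a-2 one of -0.18 (0.0140).

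Mirlet7c-2 differed most, at 28.0 CPM in replicate 1 and 41.7 CPM in replicate 2, which is 1.49 times lower in replicate 1 (log2 -0.58, counting SE 0.149, adjusted p 0.000321 by the exact test). Mirlet7d was higher in replicate 1 by a log2 ratio of 0.07 (adjusted p 6.84e-13 by the exact test), but its ratio was -0.0023 with TMM scaling (adjusted p 0.894) and 0.00049 with DESeq2 scaling. Mirlet7b had a ratio of 0.0034 (adjusted p 0.972 by the exact test), and with TMM scaling it was lower in replicate 1 at -0.07 (adjusted p 0.0221), as it was with DESeq2 scaling (adjusted p 0.0292). Mirlet7a-1 and Mirlet7c-1 had ratios of -0.02 and -0.04 (adjusted p 0.903 and 0.902 by the exact test).

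Summed marker levels were lower in replicate 1 for every list, hepatocyte and neural included, though not every marker was. The 4 hepatocyte markers summed to 219881 and 221989 CPM, and 3 of them passed the test as lower in replicate 1. The 5 neural markers with a row summed to 157 and 170 CPM, and 1 passed as lower. The 5 epithelial markers summed to 4266 CPM in replicate 1 and 6376 CPM in replicate 2, and all 5 passed the test as lower in replicate 1. The 3 muscle markers summed to 1263 and 2205 CPM, of which Mir206 alone made up 1104 and 2050 CPM and passed as lower, while Mir133b and Mir499 had ratios of 0.28 and 0.02 and did not pass. The 3 mesenchymal markers summed to 16068 and 18143 CPM, mostly Mir143 with 15059 and 17326 CPM, while Mir214 was higher in replicate 1 with 816 and 602 CPM. The endothelial marker had 45470 and 48546 CPM. The 3 leukocyte markers summed to 17618 and 18343 CPM, mostly Mir223 with 16769 and 17529 CPM, while Mir342 had 825 and 789 CPM and did not pass. Of the 3 erythroid markers, 2 were lower in replicate 1 and Mir486 was higher in it, with 727 and 459 CPM. Their part in the differences between the pools was not tested.

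**Figure D4:**
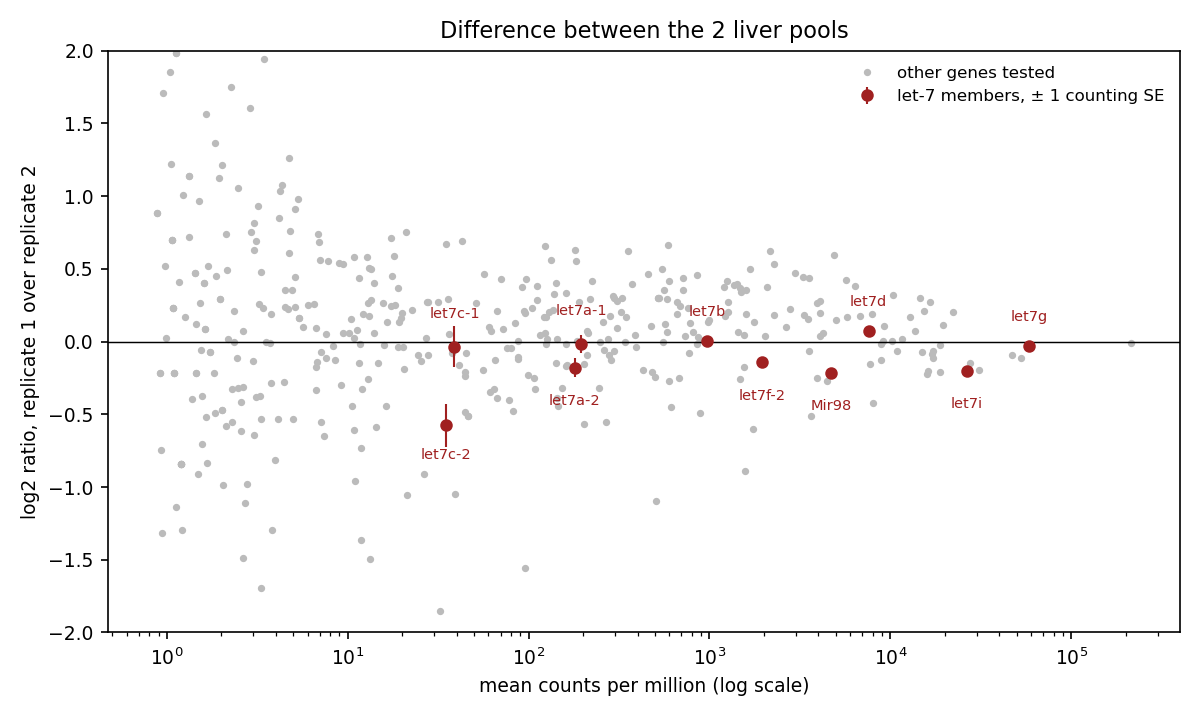
Log2 ratio of replicate 1 over replicate 2 (vertical axis) against mean CPM (horizontal axis, log scale) for the 10 members, with bars of 1 counting SE, and for the other genes tested in grey; 12 grey genes lie outside the axis. Mirlet7c-2 lies lowest of the members at -0.58, and the other 9 lie between -0.21 and 0.07.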

How the data were processed

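The authors deposited raw counts per gene for 2 libraries, in 3 columns (both strands, and each strand) with 4 tally rows. Per the labels, the assembly is mm10; annotation GENCODE M4 is named in the text deposited with the counts. The aligner is not given in the sources used here, and molecular identifiers are not mentioned in them. The stranded column taken as the sense-strand count was the one with the larger total in both libraries, and tally rows were left out of totals. Names and coordinates came from GENCODE M21 by versionless identifier (1894 of 1973 rows matched), and sequences from RefSeq (GRCm38.p6). Mature forms were searched in 1005 RefSeq mouse hairpins, not in a genome, so other genomic copies were not searched.

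CPM, shares and ratios (0.5 added to each count) were computed in Python 3.11.15 with SciPy 1.17.1. Genes with 10 or more counts over both libraries were tested with the exact binomial test, at an adjusted p threshold of 0.05. A quasi-likelihood fit has no residual degrees of freedom with 1 library against 1. The test was run on simulated data first. TMM (edgeR 4.0.16) and DESeq2 1.42.0 scaling were alternatives. Named genes were the members, other let-7 seed genes, the cluster neighbours, Mir122, Mir451a and the 3 nearest non-member genes of the 3 highest members. Members, lists and rules were chosen with earlier results of these data known. The loop of Mir98 is not reported here.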

Additional observations from a re-analysis of the deposited data

Results flagged for a closer look

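Counts on the strand opposite to the annotated gene, which the family's levels do not use, held a signal at 3 let-7 loci. On the strand of Mirlet7e they came to 16918 in replicate 1 and 13192 in replicate 2, and on the strand of Mirlet7f-1 to 569 and 599. Both lie in rows of opposite-strand genes with at most 2 counts of their own. At Mirlet7b, the other strand held 12 counts in replicate 1 and 11 in replicate 2. Each of these is above the 3 counts that a count of 0 allows. Of the 12 rows of the tables with 100 or more other-strand counts in both libraries, 10 had more counts on the other strand than on their own.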

How the results depend on the processing

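The family's share of 10.04% was 9.22% of counts irrespective of strand and 12.8% of a total without Mir122. It was 6.01% with multimapping reads added to the total and 4.21% of all tallied reads. Both of these totals take in the multimapping reads, but any let-7 reads among them are not in the family's count. It was 1.53% when all genes sharing any 18-base word with another listed gene were left out of family and total, and 4.47% with Mirlet7g left out of both, an alternative chosen after seeing the data, as was adding the strands of Mirlet7e and Mirlet7f-1 (10.3%). The share of members with a 5p form in 1 hairpin was 70.4% with at most 1 mismatch, in place of 97.6%. Division by hairpin length gave log2 ratios of 5.14 for Mirlet7d over Mirlet7a-1, 0.89 for Mir98 over Mirlet7f-2, -8.98 for Mirlet7c-1 over Mir99a and -2.71 for Mirlet7a-2 over Mir100. TMM scaling turned the ratio between the pools to -0.0729 for Mirlet7b and -0.0023 for Mirlet7d, and DESeq2 scaling to -0.0701 for Mirlet7b. With TMM or DESeq2 scaling 7 members were still called, 6 of them shared with library-total scaling; Mirlet7b was added and Mirlet7d lost.

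Leaving out 1 replicate gave family shares of 9.77% to 10.3% and shares of the first class of 97.55% to 97.65%. The log2 ratios ran from 5.23 to 5.32 for Mirlet7d over Mirlet7a-1, 4.54 to 5.12 for Mirlet7b over Mirlet7c-2, 1.23 to 1.30 for Mir98 over Mirlet7f-2, -8.50 to -8.39 for Mirlet7c-1 over Mir99a and -2.53 to -2.36 for Mirlet7a-2 over Mir100. The order held for 10 members without replicate 2 and for 8 without replicate 1. The test between the pools could not be run without a replicate. No paired analysis was possible because there is 1 group.

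The multimapping tally is not split by microRNA, counts hold both arms, and PCR copies cannot be told from molecules. Mirlet7c-1 and Mirlet7c-2, with 166 to 228 counts, have the least depth of the members.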
